A study of Mus musculus with 18 samples.

Results

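Cumulus cells form the layer of granulosa cells around an oocyte. The comparison described here asks what changed in mouse cumulus cells when oocytes were put back beside complexes that had lost theirs, with estrogen present throughout. Its members are 6 of the 18 arrays of the series, chosen by the sample titles. They are 3 arrays of oocyte-free complexes cultured with estrogen and no oocyte (titled E2 OOX, numbers 5, 11 and 17) and 3 arrays of oocyte-free complexes cultured with estrogen and added oocytes (titled E2 OOX + Oocytes, numbers 6, 12 and 18). By their titles, both groups had lost their own oocyte and both received estrogen, so added oocytes are the difference between the titles; number 5 has other labels that disagree on estrogen, as described below. The other arrays hold intact cumulus-oocyte complexes with and without estrogen (E2 COC and COC) and the same oocyte-free and coculture groups without estrogen, 3 arrays each. Estrogen dose, culture time, number of oocytes, strain and age are not given in the labels used here. Whether the 3 arrays of a group stand for separate animals or cultures is not stated there. Each p-value thus measures only the spread within groups, pooled in most fits over the 18 arrays of the series, and that spread may be technical. In bulk RNA, a lower share of cells of a type and less RNA in each cell cannot be told apart.

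The oocyte secretes growth factors of the TGF-beta family, above all GDF9 and BMP15, that act through SMAD proteins in the surrounding cumulus cells, and it depends on those cells for sterols, for products of glycolysis and for some amino acids that it takes up or makes poorly itself. Cumulus cells in turn carry estrogen receptors and lie in follicular fluid rich in estrogen. Surgical removal of the oocyte with later coculture separates the soluble signals of the oocyte from its physical contacts with the cumulus cells.

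RNA was measured on Affymetrix mouse expression arrays, 1 per sample, and all levels below are log2 expression values on which 1 unit is a 2-fold step. The array medians lay between 5.51 and 5.71. Oocyte-free arrays with estrogen spread more (median SD of a gene 0.230) than coculture arrays with estrogen (0.171). The array named number 5 has conflicting labels: its title places it with estrogen, whereas its source name and treatment place it in oocyte-free culture without estrogen. The title was followed, and results are also given without it. Across genes, number 5 correlated at 0.985 with the mean of the other E2 OOX arrays and at 0.950 with that of the oocyte-free arrays without estrogen; for numbers 11 and 17 the same correlations were 0.977 and 0.956, and 0.969 and 0.967. Genes are not independent replicates, and these values are a description. By the array names, 5 of the 6 arrays belong to 1 series of arrays and number 17 to another, so results are also given within array series 1.

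The cumulus label was checked against granulosa markers, which were present: all 7 of 7 lay above the array median on each oocyte-free array and 6 of 7 on each coculture array, where Wt1, a transcription factor of early gonadal cells, fell below it. The mean level of the 7 was 9.37 to 9.65 without and 9.77 to 9.89 with oocytes. Of 15 oocyte markers on the arrays, the mean level was 4.76 to 4.91 without added oocytes and 4.71 to 4.95 with them, below the array median in both groups, with 3 to 5 of the 15 above it on an array. Mean levels of 8 endothelial markers (4.13 to 4.22 against 4.17 to 4.39) and 9 blood and immune markers (4.64 to 4.75 against 4.73 to 4.83) were also below the array median, as were Pecam1, which defines endothelial cells, and Ptprc, which defines leukocytes, on each of the 6 arrays. However, 1 endothelial marker, Kdr, lay above the array median on every array. Of the blood and immune markers, 1 lay above it without oocytes (Csf1r) and 2 with them (Csf1r and Alas2). The 10 theca and stroma markers had a mean level of 6.16 to 6.29 without and 5.58 to 5.64 with oocytes. On each array 4 of them lay above the array median without oocytes and 3 with them. Acta2 (9.16 to 11.99), Ptch1 (8.42 to 9.34) and Pdgfra (5.71 to 6.15) lay above it on all 6 arrays. Dcn did so on the oocyte-free arrays only (7.47 to 8.61). Cyp17a1, the theca enzyme of androgen synthesis, and the stromal matrix genes Col1a1 and Lum lay below the array median on all 6 arrays.

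Adding oocytes with estrogen changed 3011 of 12246 tested genes (24.6%) at an adjusted p under 0.05 in limma. Of these, 1741 rose (14.2% of tested genes) and 1270 fell (10.4%), so 57.8% of the changes were rises. That split depended on the scaling: after centring each array on its median, 1506 rose and 1682 fell, and after a second quantile normalization 1622 rose and 1572 fell. The median change of all tested genes was 0.03, and it was -0.06 and -0.03 under those 2 scalings. A change of at least 2-fold was called for 1305 genes (10.7%), 776 higher (6.34%) and 529 lower (4.32%). Without number 5 the test called 2788 genes, 1729 higher and 1059 lower, and 2541 of the 3011 genes (84.4%) were called again in the same direction. Within array series 1 it called 3251 genes, among them 2642 of the 3011 (87.7%). Within series 1 and without number 5 it called 2967, with 2003 higher and 964 lower, among them 2177 of the 3011 (72.3%). No called gene had the opposite sign in these 3 settings. For 4650 genes (38%) the 3 and 3 arrays did not overlap, and 2918 (23.8%) were both called and free of overlap.

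**Figure D1:**
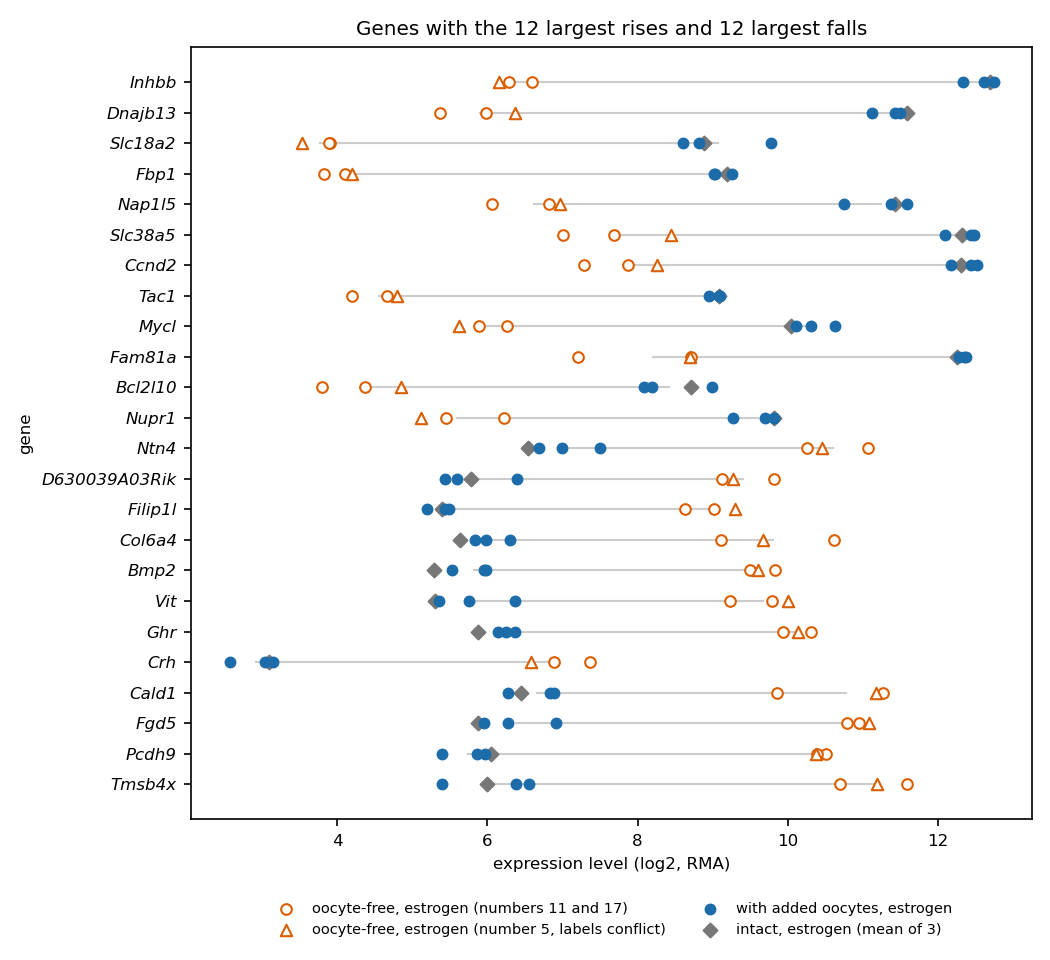
Expression level (log2, RMA) of the genes with the 12 largest rises and 12 largest falls on each of the 6 arrays, with open symbols for oocyte-free and filled circles for coculture, both with estrogen; the triangle is number 5 and the grey diamond the mean of 3 intact arrays with estrogen. The 24 genes were chosen among called genes whose 3 coculture arrays do not overlap the 3 oocyte-free arrays.

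The largest rise was in Inhbb, the beta B subunit shared by inhibin B and activin B. Inhbb lay at 6.16, 6.60 and 6.29 on oocyte-free arrays 5, 11 and 17 and at 12.33, 12.74 and 12.61 on coculture arrays 6, 12 and 18. The rise was 6.21 ± 0.323, or 74.0-fold, with an adjusted p of 4.15e-10 in limma. The SE comes from the fit over all 18 arrays, 3 per group, and not from these 6 arrays alone. Each later change is given in the same way, with values in the order of those array numbers. Dnajb13, a DnaJ-family protein known from the sperm tail, rose by 5.44 ± 0.217, from 6.37, 5.98 and 5.37 to 11.12, 11.43 and 11.49 (adjusted p 3.14e-11). Slc18a2, the vesicular monoamine transporter, rose by 5.30 ± 0.241, from 3.53, 3.90 and 3.89 to 8.61, 9.78 and 8.82. Fbp1, fructose bisphosphatase of gluconeogenesis, rose by 5.06 ± 0.210, from 4.20, 4.10 and 3.82 to 9.01, 9.03 and 9.26. The 12 largest rises and 12 largest falls were taken from called genes whose 3 and 3 arrays did not overlap. Their lack of overlap is thus no further result. 

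The other large rises were spread over transport, growth and signalling genes. Slc38a5, a glutamine and histidine transporter, rose by 4.62 ± 0.253, from 8.44, 7.68 and 7.01 to 12.09, 12.44 and 12.47. Ccnd2, cyclin D2, the main D-type cyclin of granulosa cell growth, rose by 4.57 ± 0.198, from 8.26, 7.87 and 7.28 to 12.17, 12.44 and 12.51, and all 7 of its probe sets rose. Tac1, the precursor of substance P, rose by 4.49 ± 0.171 and reached 8.95 to 9.10. Mycl, a MYC family transcription factor, rose by 4.43 ± 0.209, from 5.62, 5.89 and 6.26 to 10.11, 10.31 and 10.63. Nap1l5, an imprinted nucleosome assembly protein gene (4.62 ± 0.262), Fam81a (4.13 ± 0.318), Bcl2l10, a BCL2 family member (4.08 ± 0.339), and Nupr1, a small stress-induced nuclear protein (4.00 ± 0.284), complete the 12. Bcl2l10 is also used as an oocyte gene; it rose from 4.85, 3.80 and 4.37 to 8.99, 8.08 and 8.19, while the other oocyte genes tested, Gdf9, Ooep, Figla, Zar1 and Dppa3, were not called. Gdf9, the oocyte growth factor itself, stood at 6.61, 6.90 and 6.89 without and 7.03, 6.75 and 6.81 with oocytes, and these overlap.

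The largest fall was in Tmsb4x, thymosin beta, which binds actin monomers. It stood at 11.18, 11.58 and 10.69 without oocytes and at 6.55, 5.39 and 6.38 with them. The change was -5.04 ± 0.278, a 33.0-fold fall with an adjusted p of 7.93e-10 in limma. Pcdh9, a protocadherin of cell contacts, fell by 4.68 on the log2 scale, from 10.37, 10.51 and 10.39 to 5.40, 5.86 and 5.97. Fgd5, an exchange factor of the small GTPase CDC42, fell by 4.55, from 11.08, 10.95 and 10.78 to 5.96, 6.28 and 6.91. Cald1, caldesmon, an actin-binding regulator of contraction, fell by 4.10, from 11.17, 11.27 and 9.86 to 6.88, 6.28 and 6.83, and all 4 of its probe sets above the array median fell. Crh, corticotropin-releasing hormone, fell by 4.02, from 6.58, 7.36 and 6.88 to 3.15, 2.57 and 3.04. These 5 genes too were chosen among those without overlap. The growth hormone receptor Ghr (-3.87 ± 0.333), the matrix protein vitrin Vit (-3.84 ± 0.418), Bmp2 (-3.82 ± 0.198), the collagen VI chain Col6a4 (-3.76 ± 0.426), Filip1l (-3.61 ± 0.227), D630039A03Rik (-3.60 ± 0.227) and netrin Ntn4 (-3.53 ± 0.272) complete the 12.

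Each of these 24 genes was called when any 1 of the 6 arrays was left out, within array series 1, and within series 1 without number 5. The plot of the 24 changes under those settings shows how little most of them moved. Among the falls, Col6a4 went from -3.76 to -3.07 within series 1 without number 5.

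**Figure D2:**
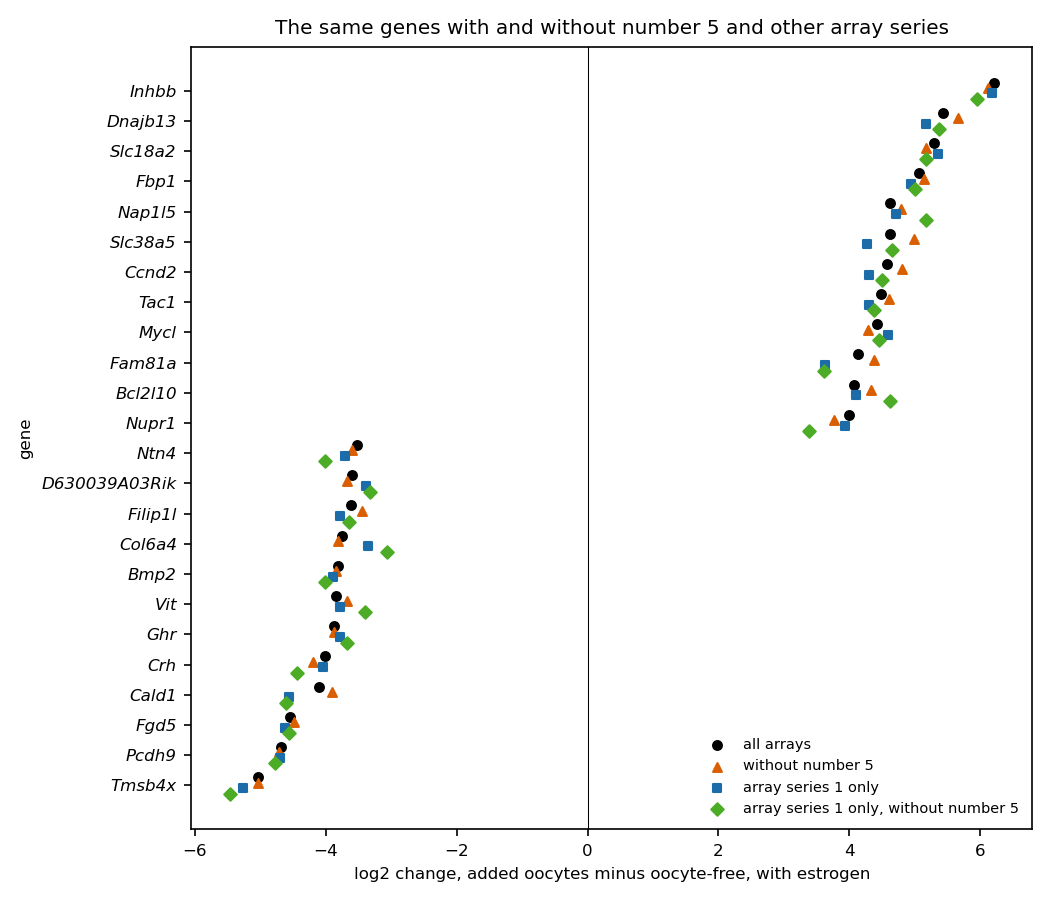
Log2 change with added oocytes (coculture minus oocyte-free, with estrogen) of the 24 genes with all arrays, without number 5, within array series 1, and within series 1 without number 5. All 4 symbols of each gene lie on the same side of 0, with Inhbb between 5.96 and 6.21 and Tmsb4x between -5.47 and -5.03.

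Transcripts of signals of the TGF-beta family, which includes GDF9, BMPs, activins and inhibins, went both ways. Of 11 activin and inhibin genes tested, 4 rose, 1 fell and 6 were not called, with a median change of 0.41. Over all tested genes, 14.2% rose and 10.4% fell, and list counts near these shares are no result about a list. Besides Inhbb, follistatin Fst, which binds and neutralises activins, rose by 2.45 ± 0.206, from 11.11, 10.51 and 10.56 to 13.00, 13.32 and 13.20. Inhba, the beta A subunit, rose by 1.14 ± 0.182, from 11.95, 11.61 and 11.29 to 12.78, 12.70 and 12.80. The alpha subunit Inha, which makes a beta subunit into inhibin, rose by 0.45 but was not called with all single-gene probe sets tested. The 3 coculture arrays lay above the 3 oocyte-free arrays in Fst and Inhba. Tgfbr3, the inhibin coreceptor betaglycan, changed by -0.80 ± 0.240 (adjusted p 0.0207 in limma) and was not called without number 5.

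In the BMP and GDF9 list, 3 of 20 tested genes rose, 7 fell and 10 were not called, with a median change of -0.29. Bmp2, a BMP ligand, was at 9.60, 9.83 and 9.49 without oocytes and at 5.98, 5.53 and 5.95 with them. The BMP antagonist gremlin, Grem1, rose by 2.69 ± 0.247, from 6.90, 6.71 and 5.85 to 8.99, 9.25 and 9.30. The groups did not overlap in Grem1, and Bmp2 was chosen among genes without overlap. Among receptor and SMAD genes, the type I receptor Tgfbr1 fell by 1.17, the BMP-pathway mediator Smad1 by 1.23, Tgfbr2 by 0.88 and the activin- and GDF9-pathway mediator Smad3 by 0.91. With all single-gene probe sets tested, 1 of 3 Smad3 probe sets above the array median was called, and they ran from -0.91 to 0.02. For Tgfbr1 and Tgfbr2 it was 1 of 2 each, and for Smad1 2 of 3. Anti-Müllerian hormone, Amh, made by granulosa cells of growing follicles, stood at 6.44 to 6.57 without and 6.48 to 6.66 with oocytes (0.10 ± 0.134, adjusted p 0.645 in limma). The AMH receptor Amhr2 differed by 0.53 ± 0.153 (adjusted p 0.0175), a call that was lost within array series 1.

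Genes known to follow SMAD signals were split as well: of 16 tested, 4 rose and 6 fell, with a median change of -0.11. Without number 17, 2 rose. Id1, an inhibitor of differentiation and a direct BMP target, fell by 1.83, from 10.62, 10.52 and 10.54 to 8.98, 8.59 and 8.63. Its relative Id4 fell by 1.34 and Id2 by 0.69, whereas Id3 stood at 12.54, 12.59 and 12.19 without and 12.28, 12.29 and 12.29 with oocytes and was not called (-0.15 ± 0.126). Ccn2, connective tissue growth factor, fell by 2.38, from 12.01, 11.79 and 12.90 to 9.81, 9.45 and 10.29. Smad6, an inhibitory SMAD, fell by 1.08 but was not called with all single-gene probe sets tested. On the other side, the TGF-beta binding protein Ltbp1 rose by 1.97 ± 0.182, from 6.02, 6.34 and 6.12 to 8.05, 8.25 and 8.08, and Pmepa1, a TGF-beta feedback gene, rose by 1.22.

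Of 11 genes for signals from granulosa cells to the oocyte and their partners, 4 rose and 4 fell (median 0.12). Kit ligand, Kitl, which drives oocyte growth through the KIT receptor, fell by 3.14 (SE 0.364). It stood at 9.82, 9.78 and 11.47 without oocytes and at 7.36, 7.24 and 7.04 with them. Number 17, the array outside series 1, was the highest, and the fall was called within series 1 too. Gja4, a gap junction connexin of the oocyte side, rose by 1.90 ± 0.195, from 4.25, 4.05 and 4.17 to 6.36, 5.94 and 5.86. The Notch target Heyl rose by 1.83 ± 0.243, while the receptor Notch2 fell by 1.15 and the target Hes1 by 1.05. Nppc, the natriuretic peptide that holds the oocyte in meiotic arrest, stood at 7.47, 7.16 and 6.93 without and 7.68, 7.05 and 7.19 with oocytes and was not called (0.12 ± 0.210). Its receptor Npr2, which makes cGMP in cumulus cells, differed by 0.68 ± 0.221 (adjusted p 0.0318 in limma), but the groups overlapped and the call was lost without number 5.

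Among receptors for follicular hormones, 3 of 11 rose and 2 fell (median 0.12). Esr1, estrogen receptor alpha, rose by 1.55 ± 0.310, from 7.33, 7.32 and 7.25 to 9.02, 8.89 and 8.64. Esr2, estrogen receptor beta and the main form of granulosa cells, stood at 7.33, 6.27 and 7.29 without and 6.78, 7.33 and 7.16 with oocytes, and these overlap (0.13 ± 0.242, adjusted p 0.767 in limma). The FSH receptor Fshr rose by 1.88 ± 0.267, from 6.29, 5.60 and 5.74 to 7.55, 7.77 and 7.95. The orphan receptor Nr5a2, needed for ovulation, rose by 1.57 ± 0.256. Ghr fell, from 10.13, 9.93 and 10.31 to 6.14, 6.37 and 6.25.

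Of 15 genes known to respond to estrogen in other tissues, 2 rose and 2 fell (median -0.09), a share near the 24.6% called over all tested genes. Greb1, a classical estrogen target, stood at 12.35 to 12.52 without and 12.35 to 12.66 with oocytes (0.08 ± 0.143, not called), with estrogen present in both groups. Stc2, stanniocalcin, rose by 2.38 ± 0.310 and Igf1, insulin-like growth factor, by 2.27 ± 0.250, the latter from 9.11, 8.93 and 7.86 to 10.71, 11.19 and 10.82. Igfbp4, which binds IGF1, fell by 1.75, from 9.72, 9.55 and 10.83 to 8.40, 8.54 and 7.92. Wnt4, a ligand of ovarian development, changed by -0.94 ± 0.310 (adjusted p 0.0341 in limma), a call lost when only the 2 groups were fitted.

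In steroid synthesis 3 of 9 genes rose and 1 fell (median 0.44). Hsd17b1, which converts estrone to estradiol, rose by 3.64 ± 0.206, from 10.17, 9.17 and 9.12 to 13.05, 13.18 and 13.15. Hsd3b1, which makes progesterone and its relatives, rose by 1.11 ± 0.230. Cyp11a1, the side-chain cleavage enzyme at the start of the pathway, lay below the array median on the oocyte-free arrays (5.13 to 5.20) and at 5.55 to 5.88 on coculture arrays, and was not called (adjusted p 0.106 in limma). Fdx1, the electron carrier of that enzyme, changed by -0.45 ± 0.145, a call lost within array series 1. Star, the cholesterol carrier of the mitochondrion, differed by -0.20 ± 0.161 with overlapping arrays.

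Transcripts of nearly all sterol synthesis enzymes rose. The pathway turns acetyl-CoA into cholesterol, and 15 of its 17 tested enzyme genes rose, none fell and 2 (Sc5d and Hsd17b7) were not called. The median change was 2.00 against 0.03 for all tested genes. Idi1, isopentenyl diphosphate isomerase, rose by 3.81 ± 0.406, from 4.47, 4.47 and 5.74 to 8.64, 8.61 and 8.87. Mevalonate kinase Mvk rose by 2.80 ± 0.232, from 6.20, 6.00 and 5.86 to 8.92, 8.64 and 8.90. Fdps, farnesyl diphosphate synthase, rose by 2.73 ± 0.218, from 6.60, 5.81 and 6.50 to 8.81, 9.16 and 9.13. Further down the pathway, squalene epoxidase Sqle rose by 2.13 ± 0.227, from 8.36, 7.74 and 8.84 to 10.34, 10.61 and 10.39, the demethylase Cyp51 by 1.92 ± 0.299 and the sterol reductase Tm7sf2 by 2.68 ± 0.292. The same 15 to 0 counts were found without number 5 and within array series 1.

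The genes around the pathway were less uniform: 3 of 13 genes of sterol uptake, transport and regulation rose, 2 fell and 8 were not called, while within array series 1 the counts were 5 and 3. Insig1, the sterol-sensing brake of the pathway, rose by 2.07 ± 0.212, from 7.22, 7.24 and 7.41 to 9.35, 9.24 and 9.48, and the sterol carrier Stard4 rose by 2.15 ± 0.363. Srebf2, the transcription factor of the pathway, was not called (0.41). Apoe, the lipoprotein that carries cholesterol out of cells, fell by 2.62, from 11.31, 10.94 and 11.63 to 8.70, 8.11 and 9.22. Mylip, which removes lipoprotein receptors, fell by 1.91. In fatty acid synthesis 6 of 12 rose and none fell (median 0.75). Scd2, a desaturase, rose by 2.31 ± 0.362, from 11.62, 11.17 and 9.66 to 12.86, 13.34 and 13.18, with number 17 the lowest array. Its relative Scd1 rose by 1.19 ± 0.276 and fatty acid synthase Fasn by 0.85 ± 0.185. The elongase Elovl6 rose by 1.03 ± 0.290, a call lost without number 11 or without coculture number 18.

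**Figure D3:**
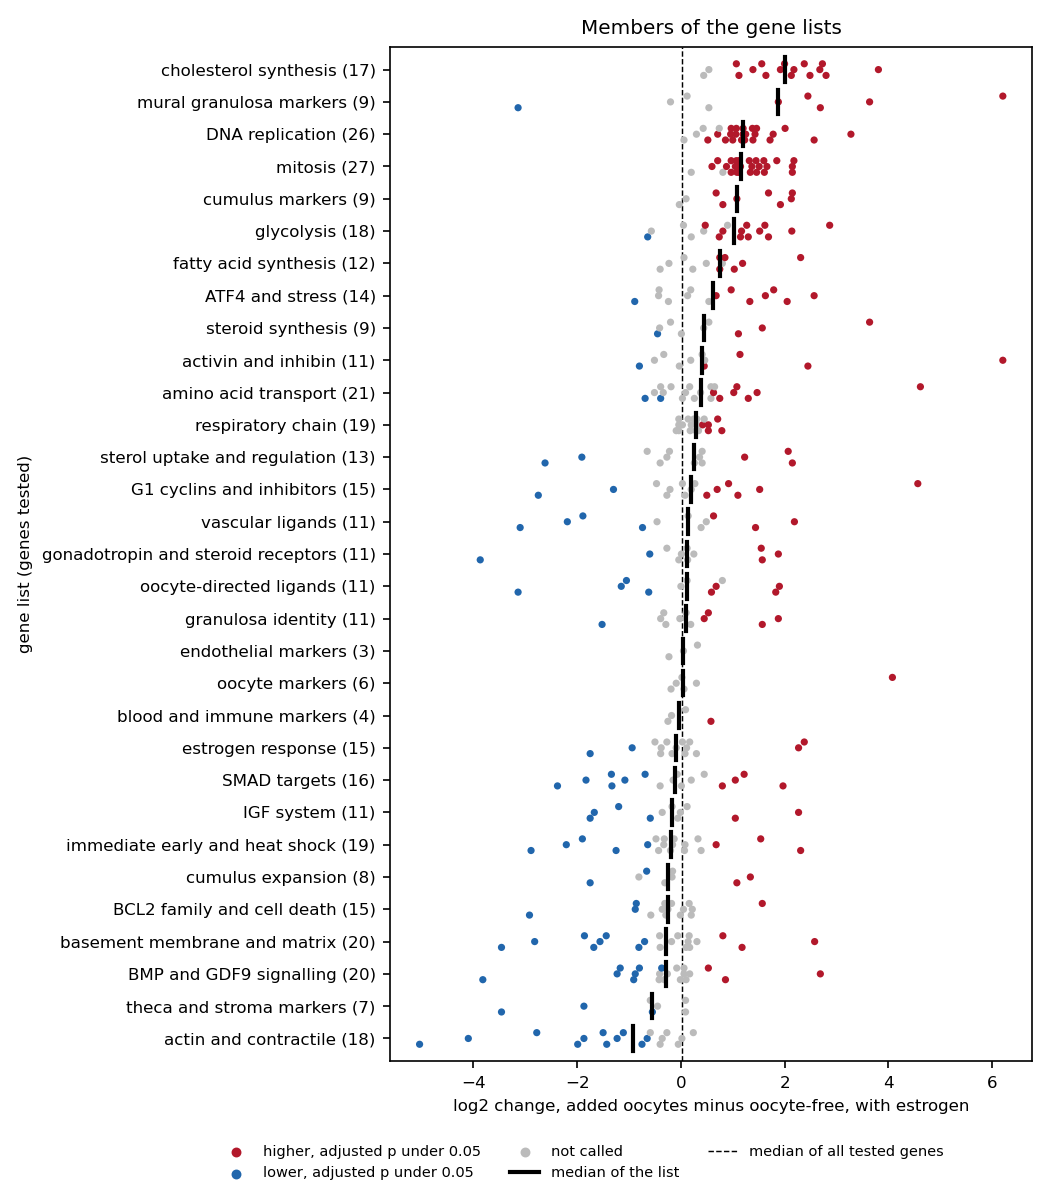
Log2 change with added oocytes, with estrogen, of every tested member of the 31 gene lists, each point a gene, coloured by the call, with the list's median as a black bar and the median of all tested genes as a dashed line at 0.03. Cholesterol synthesis has the highest median, 2.00, and the actin and contractile list the lowest, -0.93.

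Most transcripts of glycolysis rose. Of 18 genes from glucose uptake to lactate, 12 rose, 1 fell and 5 were not called (median 1.03). Aldoc, an aldolase, rose by 2.87 ± 0.282, from 8.09, 6.98 and 7.17 to 10.41, 10.14 and 10.30. Pfkp, the platelet type of phosphofructokinase and a cumulus cell marker, rose by 1.69 ± 0.297, from 8.01, 7.75 and 8.48 to 9.70, 9.80 and 9.80. Ldha, the lactate dehydrogenase chain that favours lactate, rose by 0.81 ± 0.144, from 11.61, 11.55 and 11.63 to 12.25, 12.60 and 12.38, whereas the other chain Ldhb fell by 0.64. The mutase Pgam1 rose by 1.62 ± 0.232, from 9.79, 8.91 and 8.69 to 10.66, 10.86 and 10.72. The lactate exporter Slc16a3 rose by 2.14 ± 0.229. In the nuclear genes of the respiratory chain, 5 of 19 were called, all higher, by at most 0.79 (Uqcrq), with a median change of 0.29; over all tested genes 24.6% were called, a similar share, and 14.2% were higher. Sdhb, a subunit of succinate dehydrogenase, rose by 0.53 ± 0.139. That call was lost when only the 2 groups were fitted and without coculture number 18. Cytochrome c, Cycs, rose by 0.71 ± 0.245 and the oxidase subunit Cox5a by 0.53 ± 0.166, and both calls were lost without number 5. After centring arrays on their median the count of called genes in this list was 2, without number 5 it was 3, and without number 17 it was 2.

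Among amino acid transporters 7 of 21 rose and 2 fell (median 0.38). Slc38a5, described above, had the largest change of the list. Slc38a3, its relative and a known target of oocyte signals, rose by 1.08 ± 0.192, from 10.04, 9.55 and 9.92 to 10.52, 10.94 and 11.29. Slc7a8 rose by 1.47 ± 0.275 and Slc1a4 by 1.30 ± 0.198. In the list of the integrated stress response, which answers amino acid shortage, 7 of 14 rose and 1 fell (median 0.61). The members that rose include the serine and folate enzymes Shmt2 (2.57 ± 0.208) and Mthfd2 (2.05 ± 0.193) and asparagine synthetase Asns (1.63 ± 0.220). Atf4 itself was not called by the probe set kept for it (0.19). With all single-gene probe sets tested, 1 of its 2 probe sets above the array median was called higher, and they ran from 0.19 to 0.86. Ddit3, its target in cell death, fell by 0.89, with probe sets from -0.89 to -0.13.

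Cell division genes rose broadly. Of 26 DNA replication genes 22 rose and none fell, with a median change of 1.19, and of 27 mitosis genes 25 rose and none fell, with a median of 1.15. Without number 5 the counts were 20 and 23, and within array series 1 they were 23 and 26. Tk1, thymidine kinase, rose by 3.28 ± 0.385, from 4.77, 3.45 and 4.88 to 7.49, 7.60 and 7.85. Uhrf1, which carries DNA methylation through replication, rose by 2.57 ± 0.199, from 5.96, 5.95 and 6.24 to 8.75, 8.68 and 8.44. Cdc6, which loads the replicative helicase, rose by 1.78 ± 0.336, from 5.72, 5.67 and 5.32 to 7.19, 7.65 and 7.22. The helicase subunits Mcm3 and Mcm5 rose by 2.01 ± 0.206 and 1.72 ± 0.213. Mki67, the antigen of cycling cells, rose by 2.15 ± 0.270, from 7.58, 8.15 and 7.32 to 9.58, 10.03 and 9.89. Cyclin A2, Ccna2, rose by 1.85 ± 0.294, from 7.13, 7.28 and 6.44 to 8.76, 8.87 and 8.77. The mitotic kinase Aurkb rose by 2.18 ± 0.361 and Ube2c, which helps to degrade mitotic cyclins, by 2.15 ± 0.402. For Ube2c the arrays were 9.51, 9.14 and 7.10 without oocytes, number 17 being the lowest, and 10.60, 10.71 and 10.88 with them.

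In the step before replication 6 of 15 genes of D and E cyclins, their kinases and inhibitors rose and 2 fell (median 0.20). Cyclin E1, Ccne1, rose by 1.52 ± 0.197. The inhibitor Cdkn1a fell by 1.30, from 11.80, 11.57 and 11.79 to 10.60, 10.25 and 10.40, and Cdkn1c fell by 2.75, from 8.35, 8.40 and 8.37 to 5.39, 5.82 and 5.67. Cdkn1b, another inhibitor of the family, overlapped between groups and was not called (-0.47 ± 0.231).

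Promoter sequence is shown here because the cell division and sterol genes moved together and because both groups are known for short promoter elements. The windows are those of the RefSeq table on build GRCm38.p6, 300 bases long, from 250 before to 50 after each gene's start. Matches were counted on both strands. The cell cycle element TTTGAA was found in 17 of 22 windows (77.3%) of the mitosis genes, against 17.9% of all 32851 windows and 11.6% of the windows of tested genes. The E2F site TTTNGCGC, where N is any base, was found in 10 of 27 windows (37.0%) of the DNA replication genes, against 1.38% of all windows and 2.36% of the windows of tested genes. CCAAT, in 37.4% of all windows and 37.0% of those of tested genes, was found in 77.3% of mitosis and 82.4% of cholesterol synthesis windows. The sterol element TCACNCCAC was in 1 of 17 cholesterol synthesis windows (Hmgcs1), against 1.24% of all windows and 1.22% of those of tested genes. A match is a description of the letters and says nothing of a factor bound there.

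For 5 genes that rose, the 150 bases before the start are given below, 5′ to 3′ on the strand of the gene, with the list's element and CCAAT, on either strand, in capitals. They are Cdk1, the main mitotic kinase (chr10:69352913-69353062, minus strand), Mki67 (chr7:135716380-135716529, minus strand), Cdc20, the activator of the anaphase complex (chr4:118437344-118437493, minus strand), Mcm6 of the replicative helicase (chr1:128359706-128359855, minus strand) and Hmgcs1, an early enzyme of sterol synthesis (chr13:119690201-119690350, plus strand). Cdk1 rose by 1.05, Cdc20 by 0.88, Mcm6 by 1.39 and Hmgcs1 by 1.39. In Mcm6 a forward and a reverse match of the E2F site overlap in 1 block of capitals.
Cdk1: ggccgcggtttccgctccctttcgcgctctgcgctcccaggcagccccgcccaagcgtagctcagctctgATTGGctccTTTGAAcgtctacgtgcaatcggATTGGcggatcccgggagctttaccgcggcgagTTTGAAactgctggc
Mki67: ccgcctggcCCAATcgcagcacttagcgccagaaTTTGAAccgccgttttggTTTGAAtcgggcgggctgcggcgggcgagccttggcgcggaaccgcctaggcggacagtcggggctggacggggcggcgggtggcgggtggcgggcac
Cdc20: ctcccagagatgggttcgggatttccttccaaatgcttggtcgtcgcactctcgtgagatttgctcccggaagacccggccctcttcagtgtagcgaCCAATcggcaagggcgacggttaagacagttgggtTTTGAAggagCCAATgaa
Mcm6: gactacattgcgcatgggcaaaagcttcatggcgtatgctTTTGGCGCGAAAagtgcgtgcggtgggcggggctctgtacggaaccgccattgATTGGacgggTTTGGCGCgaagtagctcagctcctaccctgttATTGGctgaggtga
Hmgcs1: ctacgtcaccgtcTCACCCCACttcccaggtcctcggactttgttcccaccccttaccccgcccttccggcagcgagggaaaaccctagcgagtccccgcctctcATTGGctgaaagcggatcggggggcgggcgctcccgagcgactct

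Actin and contractile genes moved the other way. Of 18 tested, 11 fell, none rose and 7 were not called, with a median change of -0.93. Without number 5 the count of falls was 10, and within array series 1 it was 12. Besides Tmsb4x and Cald1, calponin Cnn2 fell by 2.78, from 10.23, 9.53 and 9.61 to 7.05, 6.82 and 7.17. Vimentin, Vim, fell by 1.99, from 11.17, 10.92 and 10.36 to 8.85, 8.62 and 9.01. Smooth muscle actin Acta2 fell by 1.87, from 11.99, 11.72 and 10.79 to 10.27, 9.16 and 9.46. Vinculin Vcl fell by 1.50 and tropomyosin Tpm1 by 1.43. The cytoplasmic actins Actb (0.02) and Actg1 (-0.40) were not called. Acta2 is also a marker of the follicle wall. It is itself among the theca and stroma markers whose mean level was lower with oocytes, as given above, so that mean is not separate from its fall. The part of theca and stroma cells in this result was not tested.

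Matrix genes were mixed, with 3 of 20 higher, 8 lower and 9 not called (median -0.29). Decorin Dcn, a proteoglycan of stroma, fell by 3.46, from 7.47, 7.74 and 8.61 to 4.59, 4.29 and 4.55. The collagen chain Col5a2 fell by 2.82, from 9.08, 9.12 and 9.09 to 6.53, 5.95 and 6.35, and the basement membrane chain Col4a1 by 1.86. Fibronectin Fn1 fell by 1.56. Col6a1 rose by 2.58 ± 0.314, from 6.42, 6.13 and 5.68 to 8.90, 8.50 and 8.56, and its partner Col6a2 by 1.18. Of the 7 theca and stroma markers tested, 3 fell (Dcn, Acta2 and Ptch1), none rose, and the median was -0.55; within array series 1, 5 fell. Ptch1, the hedgehog receptor, changed by -0.55 ± 0.177 and was not called without number 5.

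Of 8 genes of cumulus expansion and its hyaluronan matrix, 2 rose and 2 fell (median -0.24). Has2, the hyaluronan synthase of expanding cumulus, rose by 1.08 ± 0.227 with levels on either side of the array median, at 4.89, 4.47 and 4.61 without and 5.70, 5.83 and 5.67 with oocytes. Versican Vcan rose by 1.34 ± 0.272. Cd44, the hyaluronan receptor, fell by 0.66, from 5.43, 5.35 and 5.52 to 4.68, 4.66 and 4.97. Cemip, which starts hyaluronan breakdown, fell by 1.75, from 6.16, 6.20 and 8.06 to 4.95, 4.95 and 5.26, and number 17 was again the highest.

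Marker lists for cumulus and mural granulosa cells, the 2 neighbouring granulosa layers, both leaned upward. Of 9 genes on the cumulus list 7 rose and none fell (median 1.08), and of 9 on the mural list 5 rose and 1 fell (median 1.88). The genes on the mural list that rose are Inhbb, Hsd17b1, Grem1, Fst and Fshr, and the one that fell is Kitl. Cyp11a1, Star and Nppc of that list were not called, and its Lhcgr, Cyp19a1, Cd34 and Cyp17a1 were not tested. Whether the cells became more like either layer was not tested. These lists share genes with the lists above and are not separate evidence. Of 11 granulosa identity genes 4 rose and 1 fell (median 0.10), and without number 17, 2 rose. Foxl2, the factor that keeps granulosa identity, stood at 10.87 to 11.61 without and 10.73 to 11.13 with oocytes and was not called (-0.33 ± 0.177). Wt1 fell by 1.52, from 6.88, 6.85 and 7.20 to 5.43, 5.51 and 5.42.

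Further lists held single large changes. Of 11 vascular ligands and receptors 3 rose and 4 fell (median 0.14): Angpt2, an antagonist ligand of vessels, fell by 3.10, from 11.26, 11.25 and 11.65 to 8.52, 7.98 and 8.37, and endothelin Edn1 by 2.19, while Pdgfb rose by 2.19 ± 0.263 and Vegfa by 1.44. The VEGF and semaphorin coreceptor Nrp1 fell by 1.89, from 5.68, 5.78 and 7.57 to 4.36, 4.51 and 4.48. Of 11 IGF genes 2 rose and 4 fell (median -0.17), among them the insulin receptor substrates Irs1 (-1.20 ± 0.188) and Irs2 (-1.67 ± 0.218). Of 15 BCL2 family and cell death genes 1 rose and 3 fell (median -0.25), a share near the 24.6% called over all tested genes, and 5 fell under either other scaling. Bmf, a death-promoting member, fell by 2.92, from 8.72, 9.03 and 9.35 to 6.47, 5.57 and 6.29, and Bnip3, a mitophagy receptor, rose by 1.57 ± 0.217. Of the survival members, Mcl1 changed by -0.88 ± 0.216 and Bcl2l2 by -0.86 ± 0.263. The Bcl2l2 call was lost within array series 1. The Mcl1 call was lost within series 1 without number 5 and with the mean of its probe sets.

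Immediate early and heat shock genes can move with handling, and 3 of 19 rose and 5 fell (median -0.20). Egr1, a growth-factor responsive transcription factor, fell by 2.89, from 12.47, 12.61 and 12.41 to 9.86, 9.70 and 9.26, and Junb fell by 1.90. Egr2, a relative of Egr1, fell by 2.21, from 7.04, 6.21 and 8.48 to 4.92, 4.83 and 5.35. The heat shock gene Hspa1b rose by 2.31 ± 0.362, from 8.26, 6.80 and 7.63 to 10.07, 9.96 and 9.60. Its near-identical copy Hspa1a rose by 1.54, and array probes may not tell the copies apart. Fos was not called (-0.48). Of 3 endothelial genes tested none was called. Of 4 blood and immune genes 1 was called, Alas2, by 0.58 ± 0.204, and that call was lost without number 5.

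Levels with added oocytes were then set beside those of intact complexes with estrogen, which share the coculture arrays with the comparison above. At an adjusted p under 0.05, limma called 0 of 12246 genes (0%) between coculture and intact complexes, and 345 had an unadjusted p under 0.05. With array weights the same test called 93 genes, 45 higher and 48 lower. All 24 genes with the largest changes lay within 1 log2 unit of the intact mean, a count that describes genes chosen on the same coculture arrays. For Inhbb the difference from intact was -0.13 ± 0.323, for Slc38a5 0.01 ± 0.253, for Tmsb4x 0.11 ± 0.278 and for Bmp2 0.53 ± 0.198. Members of the lists with the widest gaps to intact, chosen after their values were seen, are Ddit4 (1.52), Chac1 (-1.19), Bmf (1.13) and Acta2 (1.11), none of them called. A missed threshold does not show that the groups were alike. Removing oocytes with estrogen, which shares the oocyte-free arrays, called 3702 genes (30.2%).

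**Figure D4:**
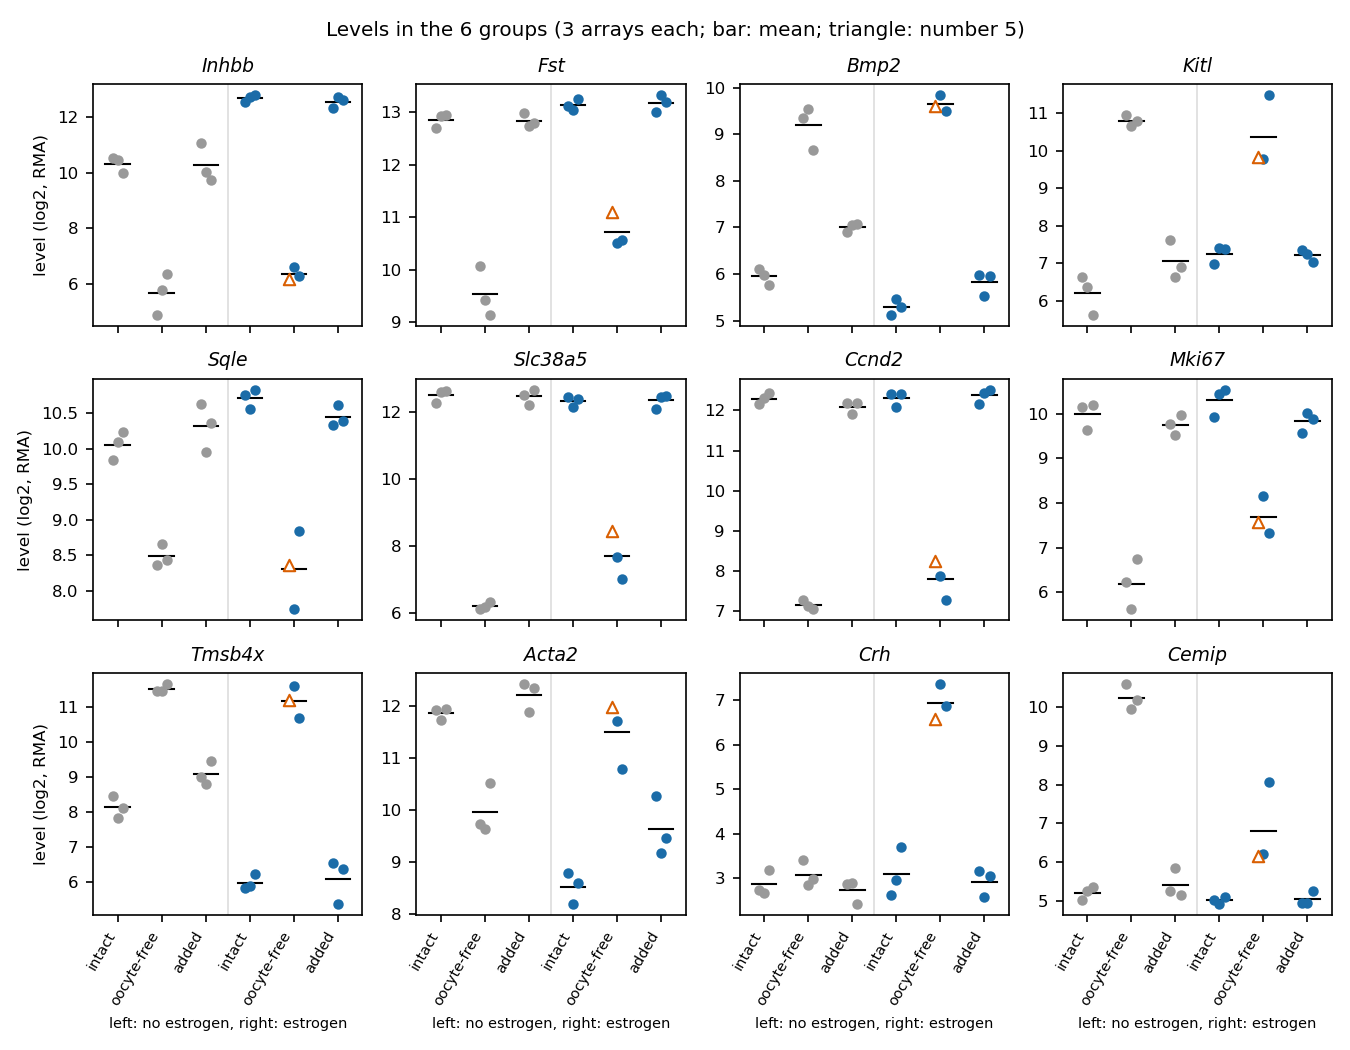
Expression level (log2, RMA) of 12 genes on each array in the 6 groups, without estrogen at left and with estrogen at right; bars are group means and the triangle is number 5. With estrogen, the coculture mean of Inhbb is 12.56 beside an intact mean of 12.69 and an oocyte-free mean of 6.35, whereas Crh stands high, at 6.94, only in the oocyte-free mean with estrogen among the 6 means.

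The same addition of oocytes without estrogen used 6 other arrays, so the 2 changes can be subtracted and the difference tested. Without estrogen, 4063 genes (33.2%) were called, 2425 higher (19.8%) and 1638 lower (13.4%). The difference, the change with estrogen minus the change without, was called for 341 genes (2.78%), of which 109 were positive (0.89%) and 232 negative (1.89%). Of the 24 genes with the largest changes with estrogen, 22 were called the same way without it, and Crh and Filip1l were not. No oocyte-free array without estrogen belongs to array series 1, so that array series and that group cannot be told apart by leaving out arrays. With array series as a term 494 differences were called, without number 5 there were 249, and with number 5 placed by its source label there were 87. All 44 differences named for list members and extremes were called with the series term, 37 without number 5 and 18 under the source label.

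The strongest negative differences were in genes that oocytes raised more without estrogen, or lowered with it. Sgpp2, a sphingosine phosphate phosphatase, rose by 5.11 without estrogen, from 4.45, 5.87 and 6.07 to 10.72, 10.14 and 10.85. With estrogen it stood at 9.31, 8.25 and 8.36 without and 9.35, 8.95 and 9.23 with oocytes, and was not called (0.54 ± 0.342). The difference was -4.57 ± 0.483 (adjusted p 3.75e-05 in limma). Acta2 rose by 2.26 without estrogen, from 9.73, 9.64 and 10.51 to 12.42, 11.88 and 12.35, and fell with it, a difference of -4.13 ± 0.445. Rgs13, a regulator of G-protein signals, stood at 3.11, 3.67 and 2.72 in the oocyte-free arrays without estrogen and at 7.84, 7.69 and 7.23 in those with it, and its difference was -3.02 ± 0.357. Gm2102, a predicted gene, had a difference of -4.10 ± 0.415 and the amino acid transporter Slc38a4 one of -2.93 ± 0.314.

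Crh, Filip1l and Ccn1 fell with added oocytes where estrogen was present and were not called without it. Crh stood at 3.41, 2.85 and 2.97 in oocyte-free arrays without estrogen and at 2.87, 2.89 and 2.42 with oocytes, all near the low end of the arrays. With estrogen the oocyte-free arrays stood at 6.58, 7.36 and 6.88, and the difference was -3.67 ± 0.378 (adjusted p 2.79e-05 in limma). Filip1l had a difference of -3.55 ± 0.321. Ccn1, a matrix signalling protein related to Ccn2, had one of -2.98 ± 0.682, which was not called without number 5 (adjusted p 0.0571). Under the source label of number 5, Acta2, Filip1l and Slc38a4 of these 8 genes kept their call.

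The strongest positive differences came from both directions. Cemip fell by 4.83 without estrogen, from 10.60, 9.97 and 10.18 to 5.26, 5.84 and 5.15, and by 1.75 with it, a difference of 3.08 ± 0.501. The corepressor Tle2 fell by 4.47 without and by 1.66 with estrogen, a difference of 2.81 ± 0.378. Cd83, an immunoglobulin-family membrane protein, rose with estrogen, from 4.19, 3.79 and 4.30 to 6.56, 6.67 and 7.39 (difference 2.96 ± 0.344), and stood at 5.38, 5.02 and 4.57 against 4.52, 5.12 and 4.78 without it. Tmem86a rose by 0.75 with estrogen and fell by 2.11 without (difference 2.86 ± 0.316). Pdgfrb, a growth factor receptor of stromal cells, had a difference of 2.97 ± 0.707. However, its oocyte-free arrays with estrogen were 5.77, 5.74 and 8.21, overlapping the coculture arrays. That difference was not called without number 5 (adjusted p 0.0879). Rbfox3 (2.92 ± 0.521), Stc1 (2.66 ± 0.401) and Tgfbi (2.61 ± 0.265), a TGF-beta-induced matrix protein, complete the 8. Cd83, Rbfox3 and Tmem86a of these 8 kept their call under the source label.

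**Figure D5:**
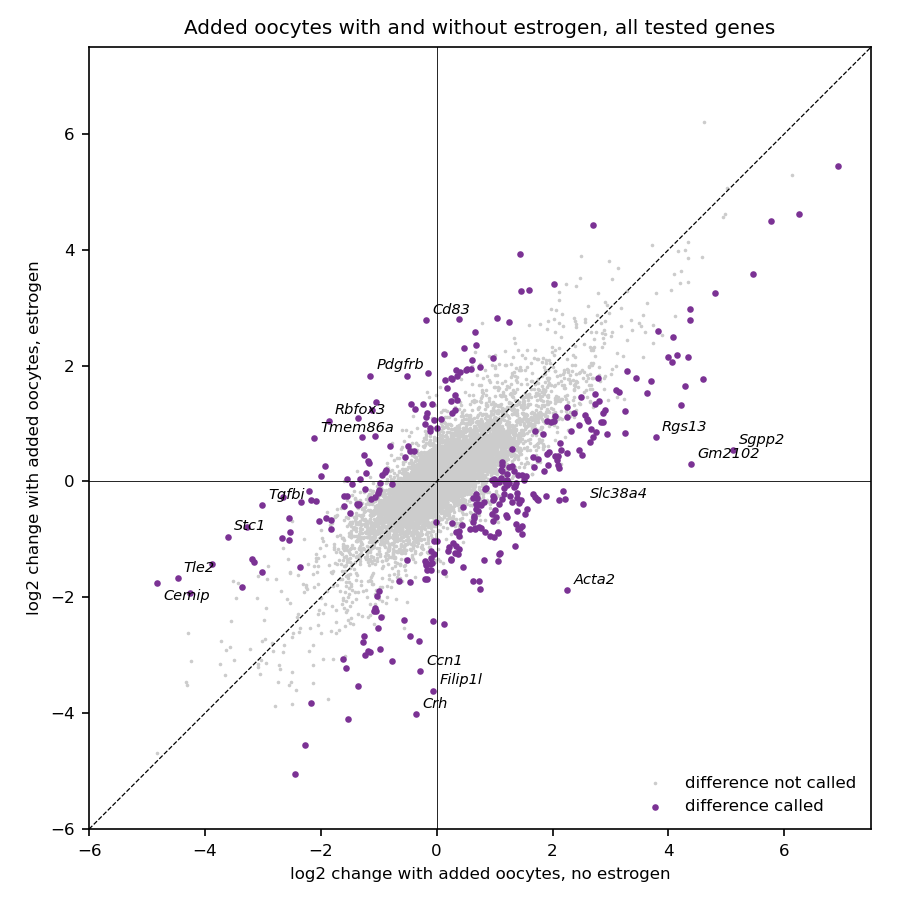
Log2 change with added oocytes with estrogen (vertical) against the change without estrogen (horizontal) for the 12246 tested genes; purple points are the 341 genes whose difference was called, the dashed line marks equal change, and the 8 largest differences each way are named. Acta2 lies at 2.26 without and -1.87 with estrogen.

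By list, 8 of 18 differences of the actin and contractile genes were called negative and none positive (44.4%), beside 1.89% of all tested genes. Without estrogen that list had 4 rises and 5 falls (median -0.12) against 0 rises and 11 falls with it. Tmsb4x fell by 2.44 without and 5.04 with estrogen, a difference of -2.61 ± 0.393, and Cald1 had a difference of -2.57 ± 0.528. Of the 7 theca and stroma markers 4 had differences called negative (57.1%), with 4 rises without estrogen. In mitosis 5 of 27 differences were called negative, among them Aurkb (-1.97 ± 0.511) and Ube2c (-2.18 ± 0.568). The list's median change was 2.22 without and 1.15 with estrogen. Without number 5 both of those calls were lost and 2 were left, without number 11 there was 1, and without number 17 there were 8. None of the 17 sterol synthesis genes had a called difference, with medians of 1.83 and 2.00. Id1 (1.53 ± 0.241) and Id3 (0.84 ± 0.178) had positive differences: Id1 fell by 3.36 without estrogen and by 1.83 with it. Nppc rose by 1.48 without estrogen, and its difference was -1.36 ± 0.296, not called without number 5 (adjusted p 0.0515 in limma).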

How the data were processed

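RNA of mouse cumulus cells was measured on 18 arrays in 6 groups of 3, after 2 rounds of amplification per the labels' protocols. The deposited values are log2 expression values which, per the submitters' processing notes, the authors made by RMA with version 1.1 of Affymetrix Expression Console. RMA sets all arrays to 1 distribution, which can move the balance of rises and falls. For the probe sets, a genome build was not given in the sources used here. Of 45101 probe sets, 34945 had 1 gene symbol, 932 several and 9160 none, and 64 were controls; 34741 symbols were updated through Entrez identifiers. For each of 18193 genes, the probe set whose mean across all 18 arrays was highest was kept. The 12246 genes above the array median on at least 3 of 18 arrays were tested.

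One limma model (version 3.58.1, R 4.3.3) was fitted over all 6 groups, and a gene was called at a Benjamini-Hochberg adjusted p under 0.05. Scripts were tested on simulated data. The genes named were the 12 largest rises and 12 largest falls without overlap, the 4 largest called changes of each of 31 lists, a set of fixed genes, and the 8 largest differences each way between the comparisons with and without estrogen; fixed genes without a printed value were not among the genes tested. Other list members are given as examples chosen after their values were seen. Of 542 list entries, 504 matched and 426 were tested. Members and lists were chosen with earlier results of these data known. Same-numbered arrays did not deviate together (correlations -0.077, 0.002 and 0.096), so numbers were not taken to pair the samples. Alternatives covered the filter, the probe set rule, scaling, array weights, array series, the label of number 5, a replicate block and leaving out each array. Promoter windows came from RefSeq on build GRCm38.p6.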

Additional observations from a re-analysis of the deposited data

Results flagged for a closer look

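The effect of added oocytes differed with and without estrogen for 341 genes by the test of the difference in limma, over 12 arrays with none shared between the 2 comparisons. All 44 named genes below met that test, and each value is the log2 change with estrogen minus the log2 change without. The negative differences, lower with estrogen, were in Sgpp2 (-4.57), Acta2 (-4.13), Gm2102 (-4.10), Crh (-3.67), Filip1l (-3.55), Rgs13 (-3.02), Ccn1 (-2.98), Slc38a4 (-2.93), Col4a1 (-2.61), Tmsb4x (-2.61), Cald1 (-2.57), Fgd5 (-2.28), Ube2c (-2.18), Ntn4 (-2.18) and Ptch1 (-2.07). Smaller negative differences were in Aurkb (-1.97), Egr1 (-1.92), Ccn2 (-1.81), Bmp2 (-1.64), Slc38a5 (-1.63), Id4 (-1.59), Slc38a3 (-1.51), Cnn2 (-1.50), Dnajb13 (-1.49), Wt1 (-1.43), Nppc (-1.36), Tac1 (-1.28), Irs1 (-1.11) and Ldha (-1.02). Positive differences were in Cemip (3.08), Pdgfrb (2.97), Cd83 (2.96), Rbfox3 (2.92), Tmem86a (2.86), Tle2 (2.81), Stc1 (2.66), Tgfbi (2.61), Vcan (1.78), Mycl (1.73), Id1 (1.53), Gja4 (1.49), Hsd3b1 (1.29), Amhr2 (0.99) and Id3 (0.84).

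Of these 44 calls, 34 held when any 1 of the 12 arrays was left out, 37 held without number 5 and 18 held with number 5 placed by its source label. Wt1 fell with estrogen and was not called without it (-0.10). Col4a1 fell with estrogen and was not called without it (0.75).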

How the results depend on the processing

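The count of genes called for added oocytes with estrogen was 3011. It was 4610 with all single-gene probe sets tested, where more features enter, and 1843 at an adjusted p under 0.01 and 1305 with a 2-fold minimum, which are stricter by construction. Under 13 other alternatives it lay between 2369 and 4000, and leaving out each of the 6 arrays in turn gave 2243 to 2788. The count of differences between the comparisons with and without estrogen, 341, was 1557 with array weights, 87 with number 5 placed by its source label and 542 without OOX replicate 3; the cause was not tested. Leaving out each of the 12 arrays gave 233 to 542, and 9 other alternatives 296 to 494. The count for coculture against intact complexes was 93 with array weights and 1 with the replicate block, and 0 to 0 when each array was left out. With the replicate number as a block, added oocytes with estrogen called 3004 genes and the difference 337. Among the named genes, 2699 values counted as the same, 124 lost the call and 10 gained it. None that was called in either fit reversed. Values called in neither fit counted as the same whatever their sign. Esr2, for example, went from 0.13 to as low as -0.22 with an array left out. Differences could not be fitted within array series 1, which holds no oocyte-free array without estrogen. With 3 arrays per group, precision is limited by their number, and genes near or below the array median can hide changes.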
